A study of Mus musculus with 12 samples.

Results

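The genes described here are 31 genes of inflammatory signalling, listed by symbol: chemokines, cytokines and their receptors, the subunits and inhibitors of the transcription factor NF-kB, and a few of its targets. Each of the 31 symbols matched 1 of the 55414 gene identifiers in the count table, and 27 of the 31 passed the filter on low counts, which kept 14435 genes in all. The cells were 3T3-L1, a mouse line of preadipocytes that turn into fat cells when treated with hormones; the labels give their type as mesenchymal stem cells. Polyadenylated RNA was sequenced from 4 groups of 3 libraries: cells overexpressing FHL2-GFP at day 2 and at day 0, and cells overexpressing CTRL-GFP, the control, at day 2 and at day 0. FHL2 is a LIM-domain cofactor of transcription that the series title places in early adipogenesis. Day 0 cells were post-confluent and not yet induced. Day 2 cells had received 170 nM insulin, 1 uM dexamethasone and 0.5 mM isobutylmethylxanthine in medium with 10% fetal bovine serum. The labels name neither the promoter of the constructs nor whether a line was a clone, and they do not say that the 3 libraries of a group were separate cultures, and a p-value here reflects the spread between libraries alone.

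In resting cells NF-kB dimers are held in the cytoplasm by inhibitors of the IkB family. Receptors for tumour necrosis factor and interleukin-1 activate the IkB kinase, which marks the inhibitors for destruction, and the released dimers switch on chemokines, adhesion molecules and their own inhibitors. Cytokines of the interleukin-6 family act instead through the shared receptor gp130 and STAT proteins, with Socs3 as a feedback inhibitor. Preadipocytes secrete chemokines that draw immune cells into fat tissue, and glucocorticoids such as dexamethasone are known to lower many NF-kB targets.

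Depth ranged from 10047708 to 21872139 counts per library. Fhl2 itself was not higher in the libraries labelled FHL2: it averaged 17.1 ± 6.49 CPM (counts-per-million values after TMM scaling) in FHL2 cells and 16.3 ± 4.03 CPM in control cells at day 2, and 62.7 ± 4.35 CPM in FHL2 cells and 61.2 ± 2.40 CPM in control cells at day 0 (SD, n = 3 each). Fhl2 thus did not bear out the construct labels, but the labels do not say how the construct was built, and its transcript may not be counted under Fhl2. Every direction between the lines below is between libraries labelled FHL2 and libraries labelled control. Day 2 libraries held 12689 to 16131 genes with a count and day 0 libraries 17977 to 18811, and the biological coefficient of variation between libraries of a group was 0.473 at day 2 and 0.121 at day 0. Genes rich in G and C were higher at day 2: the rank correlation of GC content with the change between days (Spearman's rho over 10443 genes that share these libraries) was 0.670 in FHL2 cells and 0.689 in control cells. Changes between days are therefore also given from a fit whose scaling follows GC content in each library, called the GC offset here; the part of RNA quality in them was not tested. All 9 preadipocyte markers had a count in every group, with summed levels of 20986 to 28157 CPM over the libraries. These sums rest mainly on Col1a1, Col1a2, Col3a1 and Dlk1. Cd34 was at most 2.06 CPM and had no count in the first FHL2 library and the third control library of day 2. The lines differed in some of these 9 markers at an adjusted p under 0.05 (edgeR's quasi-likelihood test). In FHL2 cells 1 was higher at day 0, and 2 were higher and 1 lower at day 2. Of all tested genes, 0.0485% differed at day 0 and 2.07% at day 2. Of 10 macrophage and blood markers 4 to 6 had a count in a group, with summed levels of 0.277 to 4.36 CPM in FHL2 cells at day 2, 7.91 to 13.6 CPM in FHL2 cells at day 0, 1.69 to 4.43 CPM in control cells at day 2 and 7.28 to 8.58 CPM in control cells at day 0. At day 0 these sums rest mainly on Lyz2, at 6.74 to 11.1 CPM in FHL2 cells and 5.34 to 5.89 CPM in control cells. At day 2 Lyz2 had 0, 1.35 and 3.63 CPM in FHL2 cells and 2.60, 0.0735 and 0 CPM in control cells. The change in the sums between days is thus mostly that of 1 gene. Adgre1, Tyrobp and Cd3e were at 0 in all 12 libraries. In bulk RNA, fewer cells of a type and less RNA per cell cannot be told apart.

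Promoter windows are printed for the 3 tested members described library by library below whose window, from 250 bases before to 50 after the annotated start, held a match to the kappaB consensus, the sequence that NF-kB dimers bind. Tnfaip3 encodes a ubiquitin-editing enzyme that shuts NF-kB signalling off, Tnip1 encodes its partner protein, and Nfkb2 encodes a subunit of NF-kB. Nfkb2 has 3 annotated starts, each with a match in its window, and the one of lowest coordinate is shown. Tnfaip3 has another annotated start, whose window held no match. Sequences are from RefSeq on build GRCm38.p6, run 5' to 3' on the strand of the gene, and carry the matched bases in capitals.
Tnfaip3, chr10:19015361-19015660, minus strand: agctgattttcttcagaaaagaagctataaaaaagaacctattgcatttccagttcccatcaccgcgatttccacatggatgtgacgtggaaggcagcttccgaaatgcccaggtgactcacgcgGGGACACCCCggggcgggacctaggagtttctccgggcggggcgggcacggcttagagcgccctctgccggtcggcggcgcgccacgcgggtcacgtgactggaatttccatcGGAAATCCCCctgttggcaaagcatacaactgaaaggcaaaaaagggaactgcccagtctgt
Tnip1, chr11:54962891-54963190, minus strand: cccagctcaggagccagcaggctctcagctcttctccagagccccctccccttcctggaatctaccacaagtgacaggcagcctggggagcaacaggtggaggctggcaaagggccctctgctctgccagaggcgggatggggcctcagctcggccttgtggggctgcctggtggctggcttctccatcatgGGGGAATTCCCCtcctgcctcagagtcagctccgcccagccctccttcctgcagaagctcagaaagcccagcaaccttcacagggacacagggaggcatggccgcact
Nfkb2, chr19:46304487-46304786, plus strand: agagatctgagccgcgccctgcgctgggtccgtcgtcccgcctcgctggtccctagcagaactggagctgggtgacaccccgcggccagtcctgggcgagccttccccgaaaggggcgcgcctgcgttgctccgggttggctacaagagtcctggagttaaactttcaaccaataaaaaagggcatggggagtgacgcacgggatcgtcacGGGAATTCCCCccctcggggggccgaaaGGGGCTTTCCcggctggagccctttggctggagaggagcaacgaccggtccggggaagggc

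The consensus was searched on both strands, and matches on the 2 strands may overlap, as they do in Tnip1 and Nfkb2. Of 21 members with at least 1 window, 8 (38.1%) held a match: Csf1, Cxcl1, Il1r1, Il6, Nfkb2, Nfkbia, Tnfaip3 and Tnip1. Among all 27025 genes with at least 1 window of the same length, 7.81% held one. Il6 carried GGGATTTTCC at 44 bases before its start, Cxcl1 carried GGGAATTTCC at 71 bases before, and Nfkbia carried GGAAATTCCC at 29 bases before. These matches describe the sequence only, and these data hold no measurement of binding.

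Between the days, 12 of the 27 tested members rose and 6 fell in FHL2 cells, and 11 rose and 6 fell in control cells (edgeR's quasi-likelihood test, Benjamini-Hochberg adjusted p under 0.05 over all genes tested). Of all tested genes, 25.8% rose and 30.2% fell in FHL2 cells, and 26.3% rose and 30.8% fell in control cells. The 11 members that rose in both lines were the chemokine Cx3cl1, the cytokine Lif, the receptors Il6st and Tnfrsf1a, the NF-kB subunits Rela, Relb and Nfkb2, the inhibitors Nfkbia, Nfkbib and Tnip1, and Socs3. The 4 that fell in both lines were Nfkb1, Birc2, Vcam1 and Ptgs2. The median log2 fold change of the tested members was 0.24 in FHL2 cells and 0.14 in control cells, beside -0.11 and -0.14 over all tested genes.

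With the GC offset, 10 members rose and 4 fell in FHL2 cells, where 14.6% of all tested genes rose and 26.5% fell. In control cells 9 rose and 5 fell, where 14.1% of all tested genes rose and 27% fell. Cx3cl1, Il6st, Tnfrsf1a and Socs3 rose in both lines with and without the offset, and Ptgs2 fell in both lines with and without it. The calls on Rela, Relb, Nfkb2, Nfkbia, Nfkbib, Tnip1 and Nfkb1 were lost in both lines, and Vcam1 turned to a rise. Ccl7, Cxcl1 and Cxcl5 were called higher at day 2 in both lines with the offset alone. Median GC content was 56.9% for the members that rose and 44.0% for those that fell in FHL2 cells, and 57.1% and 44.0% in control cells. Over the 27 tested members, Spearman's rho between GC content and change was 0.707 in FHL2 cells and 0.781 in control cells, a description over genes that share the libraries.

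**Figure D1:**
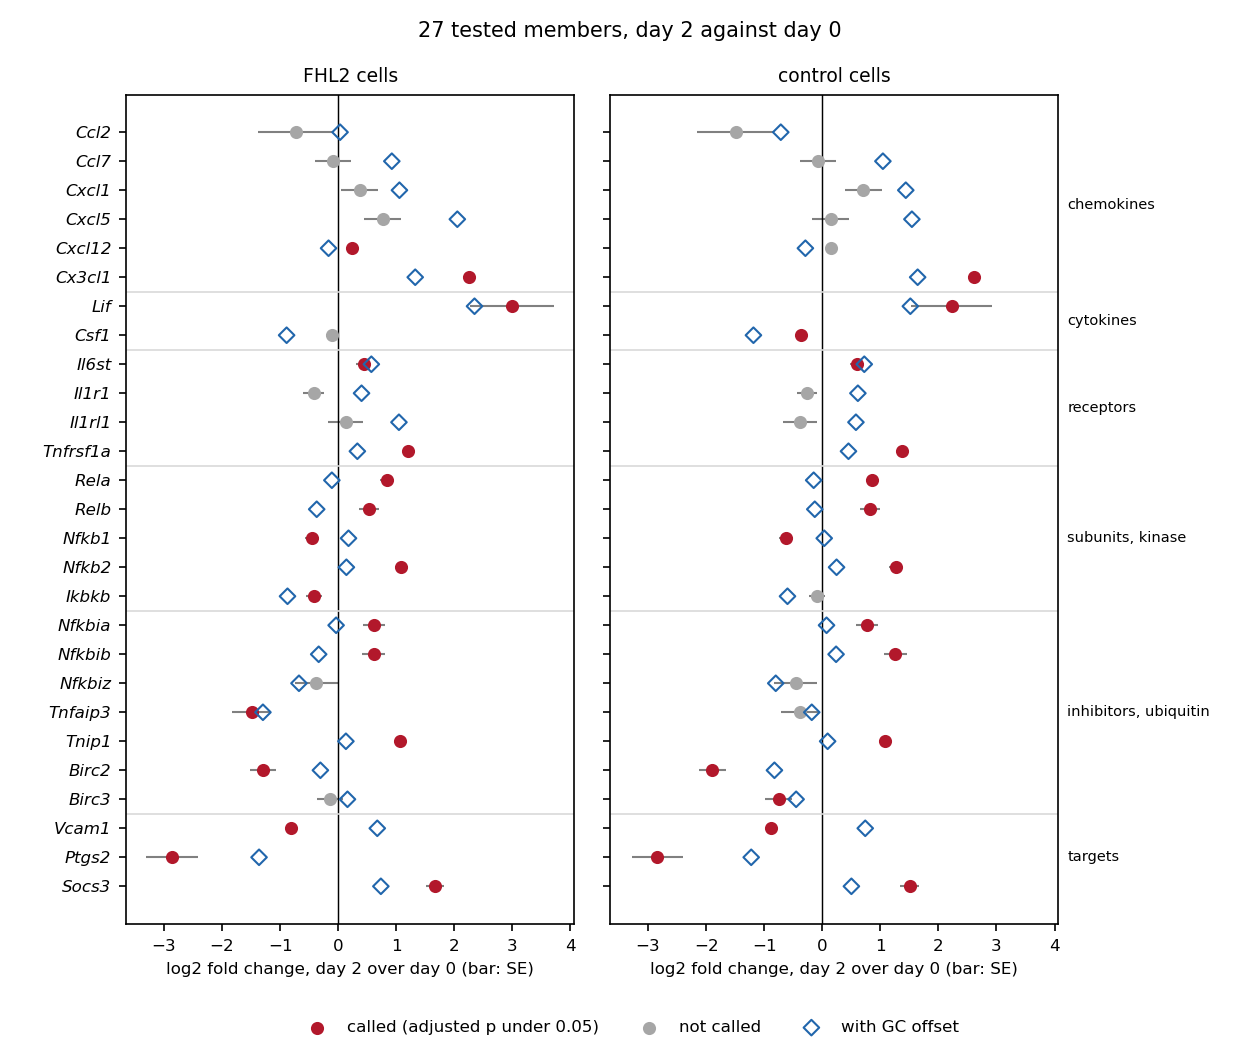
Log2 fold change of each tested member at day 2 against day 0 in FHL2 and in control cells, without and with the GC offset; filled points are the values without the offset, with standard errors, and diamonds those with it. Cx3cl1, Socs3 and Tnfrsf1a stay to the right of 0 and Ptgs2 to the left with both scalings, while Rela and Relb lie to the right of 0 without the offset and to the left with it in both lines.

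Among the chemokines, Cx3cl1, the membrane-bound chemokine fractalkine, rose most of the members with at least 5 CPM. Its level was 524, 539.8 and 450.1 CPM in FHL2 cells at day 2, against 107, 103 and 109 CPM at day 0. Control cells had 609, 580.0 and 615 CPM at day 2, against 96.3, 87.9 and 111 CPM at day 0. All day 2 libraries lay above all day 0 libraries in both lines. This gave a log2 fold change of 2.25 (SE 0.10; adjusted p = 9.09e-10) in FHL2 cells and 2.61 (SE 0.10; adjusted p = 2.20e-10) in control cells. The rise was smaller and still called with the GC offset, at 1.33 (adjusted p = 3.22e-08) in FHL2 cells and 1.64 (adjusted p = 3.84e-09) in control cells. Per kilobase of the longest annotated transcript, the level of Cx3cl1 (3315 bases) at day 2 was 152 CPM in FHL2 cells and 181 CPM in control cells. It was 121 CPM in FHL2 cells and 142 CPM in control cells for Cxcl12 (5627 bases), the ligand of CXCR4. In CPM without that division, Cxcl12 was above Cx3cl1 in every day 2 library. The order of the 2 genes thus depends on the length used, and the GC trend of day 2 was not removed from these levels.

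Cxcl12 itself moved little. It averaged 680.1 ± 30.5 CPM in FHL2 cells at day 2 and 577 ± 20.7 CPM at day 0, and 799 ± 60.7 CPM in control cells at day 2 and 720.1 ± 28.1 CPM at day 0 (SD, n = 3 each). The rise was called in FHL2 cells (log2 fold change 0.24, SE 0.08, adjusted p = 0.0165) and not in control cells (0.15, adjusted p = 0.108). Under the GC offset it was no longer called in FHL2 cells (-0.17, adjusted p = 0.0807) and was called lower at day 2 in control cells (-0.29, adjusted p = 0.00496). The call in FHL2 cells was also lost without the second FHL2 library of day 0 (adjusted p = 0.0870), and a rise was called in control cells without the first control library of day 2 (adjusted p = 0.0401) and without the third FHL2 library of day 2 (adjusted p = 0.0409).

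The monocyte attractants Ccl2 and Ccl7 and the neutrophil attractants Cxcl1 and Cxcl5 were expressed at 4.79 to 25.3 CPM in every library except 1, and none was called between the days. The exception was a control library of day 2 without a Ccl2 count. Ccl2 had 13.7, 16.3 and 9.93 CPM in FHL2 cells at day 2, against 25.3, 18.7 and 22.3 CPM at day 0. The control libraries had 8.51, 9.04 and 0 CPM at day 2, against 16.7, 18.2 and 15.6 CPM at day 0. Every day 2 library was below every day 0 library of its line, yet the adjusted p was 0.357 in FHL2 cells and 0.0702 in control cells. Without the control library that had no count, Ccl2 was called lower at day 2 in both lines, with adjusted p = 0.00927 in FHL2 cells and 0.00755 in control cells. When the 3 day 2 libraries of fewest detected genes were left out, it was called lower by 1.14 on the log2 scale in FHL2 cells (adjusted p = 0.000681) and by 0.89 in control cells (adjusted p = 0.000548). That fit keeps 1 FHL2 library of day 2, the one at 9.93 CPM, which is assumed to vary like the other groups. Ccl2 had, with the GC offset, 0.03 (adjusted p = 0.974) in FHL2 cells and -0.71 (adjusted p = 0.403) in control cells. Cxcl5, with the GC offset, had a log2 fold change of 2.05 (adjusted p = 0.000192) in FHL2 cells and 1.54 (adjusted p = 0.00171) in control cells, and Cxcl1 one of 1.06 (adjusted p = 0.0180) in FHL2 cells and 1.44 (adjusted p = 0.00288) in control cells. Without the offset, Cxcl5 was called higher at day 2 in FHL2 cells once the second FHL2 library of day 2 (adjusted p = 0.0176) or the third control library of day 2 (adjusted p = 0.0403) was left out, and Cxcl1 in control cells without the second control library of day 2 (adjusted p = 0.0381). On all 12 libraries, DESeq2 (adjusted p = 0.0435) and limma-voom (adjusted p = 0.0458) called Cxcl5 higher in FHL2 cells. So did edgeR with upper-quartile scaling (adjusted p = 0.0380) or a filter at 1 CPM (adjusted p = 0.0431), but not with RLE scaling, no filter or the replicate block. Upper-quartile scaling also called Cxcl1 higher in control cells (adjusted p = 0.0466). Cxcl16, a membrane-bound chemokine, had 20 counts over all 12 libraries and was not tested.

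Of the cytokines, Lif, a ligand of gp130, rose from a low base in both lines. It had 4.37, 2.55 and 1.76 CPM in FHL2 cells at day 2, against 0.296, 0.537 and 0.237 CPM at day 0. Control cells had 2.25, 4.26 and 4.87 CPM at day 2, against 0.949, 0.540 and 0.920 CPM at day 0. The days did not overlap in either line. The log2 fold change was 3.00 (SE 0.72; adjusted p = 0.00271) in FHL2 cells and 2.23 (SE 0.69; adjusted p = 0.0130) in control cells. The call held with the GC offset in FHL2 cells (2.35, adjusted p = 0.0158) and was lost in control cells (1.52, adjusted p = 0.0884), as it was there without the second control library of day 0 (adjusted p = 0.0675).

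Csf1, the growth factor of macrophages, averaged 269 ± 33.4 CPM in FHL2 cells at day 2 and 291 ± 17.1 CPM at day 0 (log2 fold change -0.11, adjusted p = 0.355). In control cells it fell, with 225 ± 17.0 CPM at day 2 and 288 ± 4.24 CPM at day 0 (-0.36, adjusted p = 0.00640; SD, n = 3 each), a call lost without the second control library of day 2 (adjusted p = 0.0503). Under the GC offset it fell in both lines, by 0.89 on the log2 scale in FHL2 cells (adjusted p = 2.69e-06) and by 1.19 in control cells (adjusted p = 1.70e-07). Il6, the cytokine interleukin-6, had 62 counts in all and was not tested: 3, 25 and 4 counts in FHL2 cells at day 2, 7, 1 and 8 at day 0, 0, 4 and 0 in control cells at day 2, and 3, 4 and 3 at day 0. A single FHL2 library of day 2 thus held 25 of them.

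Among the receptors, Tnfrsf1a, the main receptor for tumour necrosis factor, rose evenly. It had 294, 278 and 287 CPM in FHL2 cells at day 2, against 125, 124 and 124 CPM at day 0. The control libraries had 335, 319.9 and 312 CPM at day 2, against 123, 116 and 135 CPM at day 0. No day 2 library came near a day 0 library. This gave a log2 fold change of 1.20 (SE 0.08; adjusted p = 3.92e-08) in FHL2 cells and 1.37 (SE 0.08; adjusted p = 1.13e-08) in control cells. It was 0.33 (adjusted p = 0.00768) in FHL2 cells and 0.45 (adjusted p = 0.000894) in control cells with the GC offset.

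Il6st, which encodes gp130, averaged 582 ± 97.7 CPM in FHL2 cells at day 2 and 429.6 ± 36.2 CPM at day 0, and 714 ± 102 CPM in control cells at day 2 and 471 ± 13.2 CPM at day 0 (SD, n = 3 each). Its log2 fold change was 0.44 (adjusted p = 0.00769) in FHL2 cells and 0.60 (adjusted p = 0.000818) in control cells, and the GC offset raised it to 0.57 (adjusted p = 0.00148) in FHL2 cells and 0.72 (adjusted p = 0.000233) in control cells. When the 3 day 2 libraries of fewest detected genes were left out, the call on Il6st was lost in FHL2 cells (adjusted p = 0.169), where the fit keeps 1 library of day 2, the lowest of the 3 at 485 CPM, and takes its spread from the other groups. Il1r1, the signalling receptor for interleukin-1, had a log2 fold change of -0.42 (adjusted p = 0.0542) in FHL2 cells, where leaving out any 1 of 3 day 2 libraries brought the adjusted p under 0.05 (0.0391 to 0.0481: the first FHL2 library, the second control library or the third control library), and -0.26 (adjusted p = 0.226) in control cells. On all 12 libraries, DESeq2 (adjusted p = 0.0383) and limma-voom (adjusted p = 0.0250) called the fall of Il1r1 in FHL2 cells. So did edgeR with RLE scaling (adjusted p = 0.0476), with no filter (adjusted p = 0.0232) and with the replicate block (adjusted p = 0.0455). Upper-quartile scaling and a filter at 1 CPM did not call it. The sign of Il1r1 turned with the GC offset, to 0.40 (adjusted p = 0.0721) in FHL2 cells and 0.61 in control cells, where it was called higher at day 2 (adjusted p = 0.0101). Il1rl1, the ST2 receptor, had a log2 fold change of 0.13 (adjusted p = 0.739) in FHL2 cells and -0.38 (adjusted p = 0.286) in control cells, where the third day 2 library had 22.4 CPM and the other two 49.9 and 79.0 CPM. It was called lower in control cells without the one at 79.0 CPM (-0.82, adjusted p = 0.0228). Il1rl1 was, with the GC offset, called higher at day 2 in FHL2 cells (1.05, adjusted p = 0.00741) and turned to 0.58 (adjusted p = 0.108) in control cells. Tnfrsf11b, the decoy receptor osteoprotegerin, had no count in any library.

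The genes of the NF-kB subunits did not move one way. Nfkb2 had 169, 218 and 169 CPM in FHL2 cells at day 2, against 82.6, 85.5 and 94.3 CPM at day 0. Control cells had 249.6, 227 and 242 CPM at day 2, against 102, 92.4 and 104 CPM at day 0. The days did not overlap, and the log2 fold change was 1.08 (SE 0.11; adjusted p = 1.63e-06) in FHL2 cells and 1.27 (SE 0.11; adjusted p = 3.93e-07) in control cells. With the GC offset it was 0.14 (adjusted p = 0.315) in FHL2 cells and 0.25 (adjusted p = 0.0799) in control cells, and once transcript length was added to the offset it was 0.27 (adjusted p = 0.0454) and 0.37 (adjusted p = 0.0106) in the same lines. Nfkb2 overlaps Psd on the opposite strand in GENCODE M21, and whether counting used strand is not stated.

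Rela, the subunit with the main transactivation domain, averaged 145 ± 21.0 CPM in FHL2 cells at day 2 and 81.1 ± 4.52 CPM at day 0, and 154 ± 9.89 CPM in control cells at day 2 and 84.7 ± 7.04 CPM at day 0 (SD, n = 3 each). Its log2 fold change was 0.84 in FHL2 cells (adjusted p = 2.56e-05) and 0.86 in control cells (adjusted p = 1.87e-05). Relb, the partner of the Nfkb2 product, rose by 0.54 in FHL2 cells (adjusted p = 0.0152) and by 0.83 in control cells (adjusted p = 0.000889) on the log2 scale. In FHL2 cells this call was lost without the second (adjusted p = 0.0661) or the third FHL2 library of day 0 (adjusted p = 0.0749). Nfkb1, whose product pairs with that of Rela, fell by 0.45 in FHL2 cells (adjusted p = 0.00549) and by 0.62 in control cells (adjusted p = 0.000508). No call on these 3 genes was left with the GC offset, and each changed sign in both lines. The values were -0.11 in FHL2 cells and -0.15 in control cells for Rela, -0.37 and -0.13 for Relb, and 0.18 and 0.03 for Nfkb1.

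Ikbkb, a catalytic subunit of the IkB kinase, fell in FHL2 cells, where it had 46.5, 34.0 and 43.8 CPM at day 2, against 53.7, 55.8 and 56.4 CPM at day 0. The control libraries had 48.2, 52.0 and 62.8 CPM at day 2, against 59.9, 60.3 and 53.5 CPM at day 0. The days overlapped in control cells and not in FHL2 cells. The log2 fold change was -0.42 (SE 0.14; adjusted p = 0.0238) in FHL2 cells and -0.09 (adjusted p = 0.607) in control cells. The call was lost without the second (adjusted p = 0.0586) or the third FHL2 library of day 0 (adjusted p = 0.0630) and without the second FHL2 library of day 2 (adjusted p = 0.101), as well as without the 3 day 2 libraries of fewest detected genes (adjusted p = 0.0624), a fit that keeps 1 FHL2 library of day 2 and takes its spread from the other groups. It fell in both lines with the GC offset, by 0.87 in FHL2 cells (adjusted p = 0.000261) and by 0.60 in control cells (adjusted p = 0.00446).

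**Figure D2:**
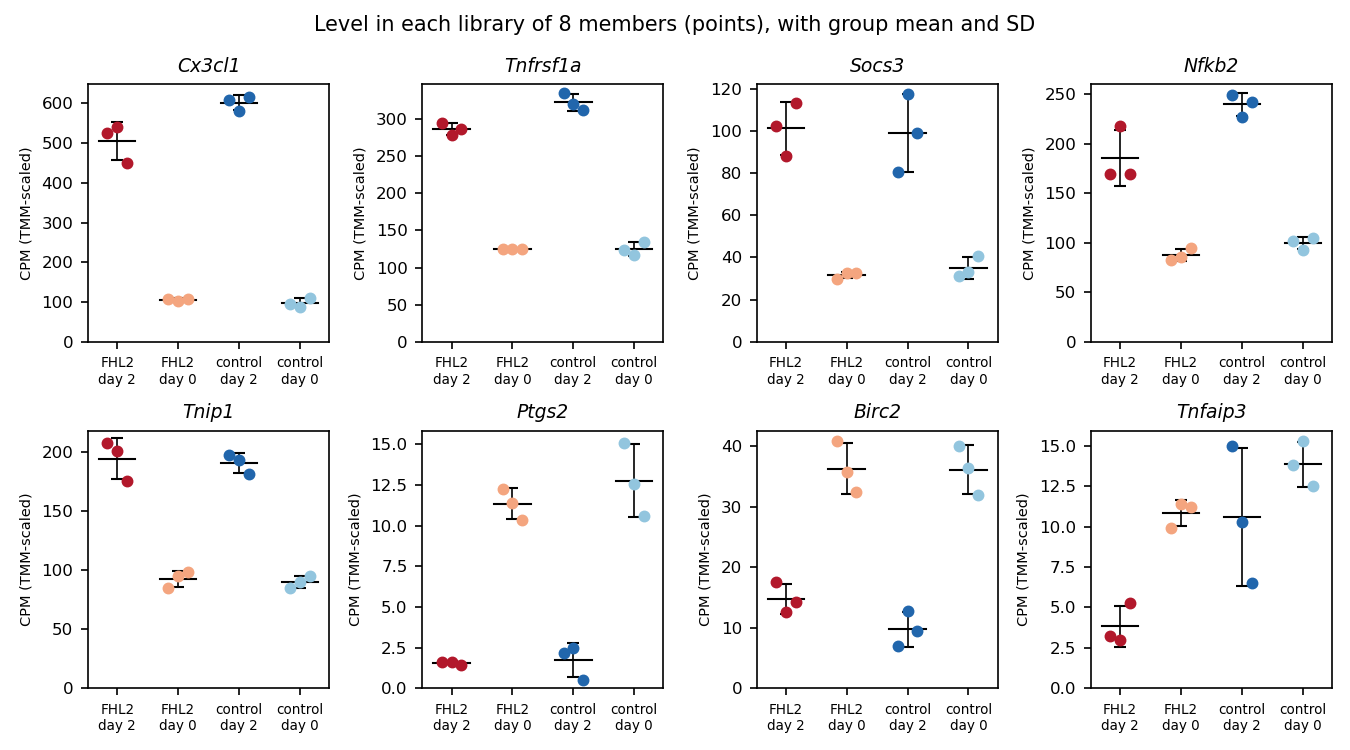
Level in CPM of 8 members in each of the 12 libraries (points), with the group mean and SD (lines), from FHL2 at day 2 on the left to control at day 0 on the right. Cx3cl1, Tnfrsf1a, Socs3, Nfkb2 and Tnip1 are higher in the day 2 libraries of both lines, Birc2 and Ptgs2 are lower, and Tnfaip3 is lowest in FHL2 cells at day 2.

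The inhibitors of NF-kB also moved apart. Tnip1 had 208, 201 and 176 CPM in FHL2 cells at day 2, against 84.9, 95.2 and 98.3 CPM at day 0. Control cells had 197, 193 and 182 CPM at day 2, against 85.1, 90.1 and 95.1 CPM at day 0. All day 2 libraries lay above all day 0 libraries, and the 2 lines overlapped on each day. This gave a log2 fold change of 1.07 (SE 0.10; adjusted p = 6.15e-07) in FHL2 cells and 1.08 (SE 0.10; adjusted p = 5.34e-07) in control cells, and with the GC offset 0.13 (adjusted p = 0.325) and 0.09 (adjusted p = 0.506) in the same lines.

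Nfkbia, the IkB protein that NF-kB itself induces, rose by 0.62 on the log2 scale in FHL2 cells (adjusted p = 0.0147) and by 0.77 in control cells (adjusted p = 0.00356). Nfkbib, another IkB, rose by 0.61 in FHL2 cells (adjusted p = 0.0146) and by 1.26 in control cells (adjusted p = 7.64e-05). In FHL2 cells both calls were lost without the second FHL2 library of day 0 (adjusted p = 0.0630 for Nfkbia and 0.0504 for Nfkbib). The call on Nfkbia was lost without the third FHL2 library of day 2 (adjusted p = 0.0815), and that on Nfkbib without the second one of day 2 (adjusted p = 0.0586) or the third one of day 0 (adjusted p = 0.0571). Under the GC offset Nfkbia had -0.03 in FHL2 cells and 0.07 in control cells, Nfkbib had -0.33 and 0.24, and none of the 4 values was called. Nfkbib overlaps Sirt2 and Ccer2 on the opposite strand. Nfkbiz, a nuclear member of the family, had 4.48 to 14.5 CPM over the 12 libraries and was called in neither line. Without the third control library of day 2, at 14.5 CPM, it was called lower at day 2 in control cells (-0.92, adjusted p = 0.0285). Without the 3 day 2 libraries of fewest detected genes it was called lower in FHL2 cells (-0.85, adjusted p = 0.0358) and control cells (-0.93, adjusted p = 0.00385). The FHL2 value then rests on 1 library of day 2, the lowest of the 3 at 4.48 CPM, with the spread taken from the other groups.

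Tnfaip3 was the inhibitor with another course. It had 3.26, 2.98 and 5.27 CPM in FHL2 cells at day 2, against 9.89, 11.4 and 11.2 CPM at day 0. The control libraries had 15.0, 10.3 and 6.49 CPM at day 2, against 13.8, 15.3 and 12.5 CPM at day 0. The days did not overlap in FHL2 cells and overlapped in control cells. It fell by 1.49 on the log2 scale in FHL2 cells (SE 0.34; adjusted p = 0.00181) and had -0.38 (adjusted p = 0.339) in control cells. The fall in FHL2 cells was called in all 12 fits that left out 1 library and with the GC offset (-1.30, adjusted p = 0.00688).

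Birc2 and Birc3 encode ubiquitin ligases of the receptor complex. Birc2 had 17.5, 12.6 and 14.2 CPM in FHL2 cells at day 2, against 40.8, 35.7 and 32.4 CPM at day 0. Control cells had 6.96, 12.7 and 9.52 CPM at day 2, against 40.0, 36.5 and 31.9 CPM at day 0. The days were far apart in both lines. The log2 fold change was -1.30 (SE 0.22; adjusted p = 0.000186) in FHL2 cells and -1.89 (SE 0.23; adjusted p = 7.56e-06) in control cells. The call held with the GC offset in control cells (-0.82, adjusted p = 0.00687) and was lost in FHL2 cells (-0.31, adjusted p = 0.266). Birc3 fell in control cells (-0.75, adjusted p = 0.0122), a call that the GC offset removed (-0.45, adjusted p = 0.135), and had -0.14 (adjusted p = 0.636) in FHL2 cells.

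Socs3 had 102, 88.3 and 113 CPM in FHL2 cells at day 2, against 30.0, 32.8 and 32.5 CPM at day 0. The control libraries had 80.3, 118 and 99.2 CPM at day 2, against 31.1, 33.0 and 40.8 CPM at day 0. All day 2 libraries were above all day 0 libraries. This gave a log2 fold change of 1.67 (SE 0.16; adjusted p = 7.73e-07) in FHL2 cells and 1.50 (SE 0.16; adjusted p = 2.00e-06) in control cells, and with the GC offset 0.74 (adjusted p = 0.00206) and 0.50 (adjusted p = 0.0219) in the same lines.

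Of the targets of NF-kB, Ptgs2, the inducible cyclooxygenase of prostaglandin synthesis, fell most. It had 1.60, 1.63 and 1.45 CPM in FHL2 cells at day 2, against 12.3, 11.4 and 10.3 CPM at day 0. Control cells had 2.18, 2.50 and 0.541 CPM at day 2, against 15.1, 12.6 and 10.6 CPM at day 0. The days were far apart in both lines. The log2 fold change was -2.86 (SE 0.44; adjusted p = 7.64e-05) in FHL2 cells and -2.84 (SE 0.44; adjusted p = 7.93e-05) in control cells. With the GC offset it was -1.36 (adjusted p = 0.0130) in FHL2 cells and -1.22 (adjusted p = 0.0229) in control cells.

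Vcam1, an adhesion molecule for leukocytes, averaged 165 ± 5.51 CPM in FHL2 cells at day 2 and 287 ± 6.18 CPM at day 0, and 166 ± 11.2 CPM in control cells at day 2 and 306 ± 9.51 CPM at day 0 (SD, n = 3 each). Its log2 fold change was -0.80 (adjusted p = 1.19e-06) in FHL2 cells and -0.88 (adjusted p = 4.92e-07) in control cells. Its GC content of 40.1% is at the 6.64th percentile of tested genes, and with the GC offset the direction turned, to 0.67 (adjusted p = 8.94e-05) in FHL2 cells and 0.74 (adjusted p = 4.08e-05) in control cells. Icam1, another adhesion molecule, had 50 counts in all and was not tested. It had no count in FHL2 cells at day 2, where 3 counts over the group, the floor used here, are 0.0666 CPM, and 25 of its counts were in the third control library of day 2.

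**Figure D3:**
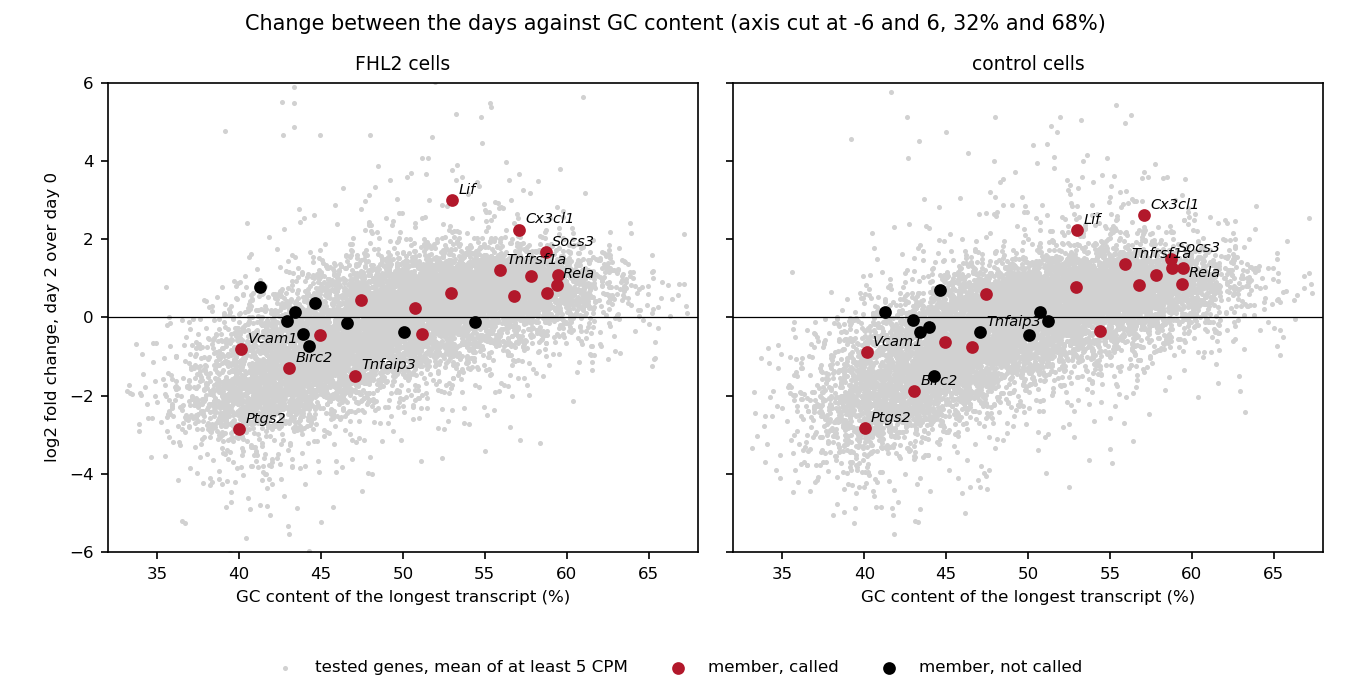
Log2 fold change at day 2 against day 0 plotted against GC content in percent, for tested genes at 5 CPM or more on average (grey) and for the members (red where called, black where not), in FHL2 and control cells. Members of high GC content such as Rela and Socs3 lie above 0 and members of low GC content such as Vcam1 and Ptgs2 below, in both lines; Csf1, at 54.4% and below 0, and Cxcl5, at 41.3% and above 0, lie the other way.

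Between the lines, few members differed beyond the spread of the libraries. At day 0 no member was called between FHL2 and control cells by edgeR's quasi-likelihood test, 1 (Cxcl12, lower in FHL2) had an unadjusted p under 0.05, DESeq2 called 1 (Cxcl12) and limma-voom 0. Of all tested genes, 0.0485% were called. At day 2 only Tnfaip3 was called, lower in FHL2 cells, beside 2.07% of all tested genes. A further 9 members had an unadjusted p under 0.05 at day 2: Csf1 and Birc2 with higher values in FHL2 cells, and Cx3cl1, Cxcl12, Ikbkb, Il1r1, Il6st, Nfkb2 and Nfkbia with lower ones. How many of all tested genes had an unadjusted p under 0.05 was not counted for any comparison. The unadjusted counts of members therefore have no background beside them and are not read as a trait of the members. DESeq2 called 3 members at day 2 and limma-voom 0. The median log2 fold change of the tested members was -0.13 at day 0 and -0.17 at day 2, beside -0.02 and 0.01 over all tested genes.

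Tnfaip3 at day 2, with the values given above for each library, was lower in all 3 FHL2 libraries than in all 3 control libraries. This gave a log2 fold change of -1.47 (SE 0.34; adjusted p = 0.0419). The call held with the GC offset (adjusted p = 0.0398). It was lost with the offset for GC content and transcript length (adjusted p = 0.0701), with the replicate number as a block (adjusted p = 0.0796), with limma-voom (adjusted p = 0.0741) and in a fit of the day 2 libraries alone (adjusted p = 0.359). It held in 2 of the 12 fits that left out 1 library, where the adjusted p ranged from 0.0140 to 0.125 and the log2 fold change from -1.79 to -1.13. The 2 were those without the third FHL2 library and without the third control library of day 2. At day 0 Tnfaip3 had a log2 fold change of -0.36 (adjusted p = 1).

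Cxcl12 was lower in every FHL2 library than in every control library of the same day. It had 676, 652 and 713 CPM in FHL2 cells and 732, 815 and 850.0 CPM in control cells at day 2. At day 0 it had 586, 553 and 592 CPM in FHL2 cells and 717, 694 and 749 CPM in control cells. The log2 fold change was -0.23 (SE 0.08; adjusted p = 0.127) at day 2 and -0.32 (SE 0.08; adjusted p = 0.226) at day 0, which missed the threshold on both days. DESeq2 called it on both days, with adjusted p = 0.0244 at day 2 and 0.00242 at day 0.

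No member was called for a change between days that differed between the lines, and 0.00693% of all tested genes were. By edgeR, 3 members had an unadjusted p under 0.05, all with a lower log2 fold change between days in FHL2 cells than in control cells, and DESeq2 and limma-voom called 0. They were Tnfaip3 (difference of log2 fold changes -1.11, adjusted p = 0.685), Nfkbib (-0.65, adjusted p = 0.685) and Cx3cl1 (-0.36, adjusted p = 0.629). A change called in 1 line only, as for Cxcl12, Ikbkb, Tnfaip3, Csf1 and Birc3, was therefore not shown to differ between the lines.

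**Figure D4:**
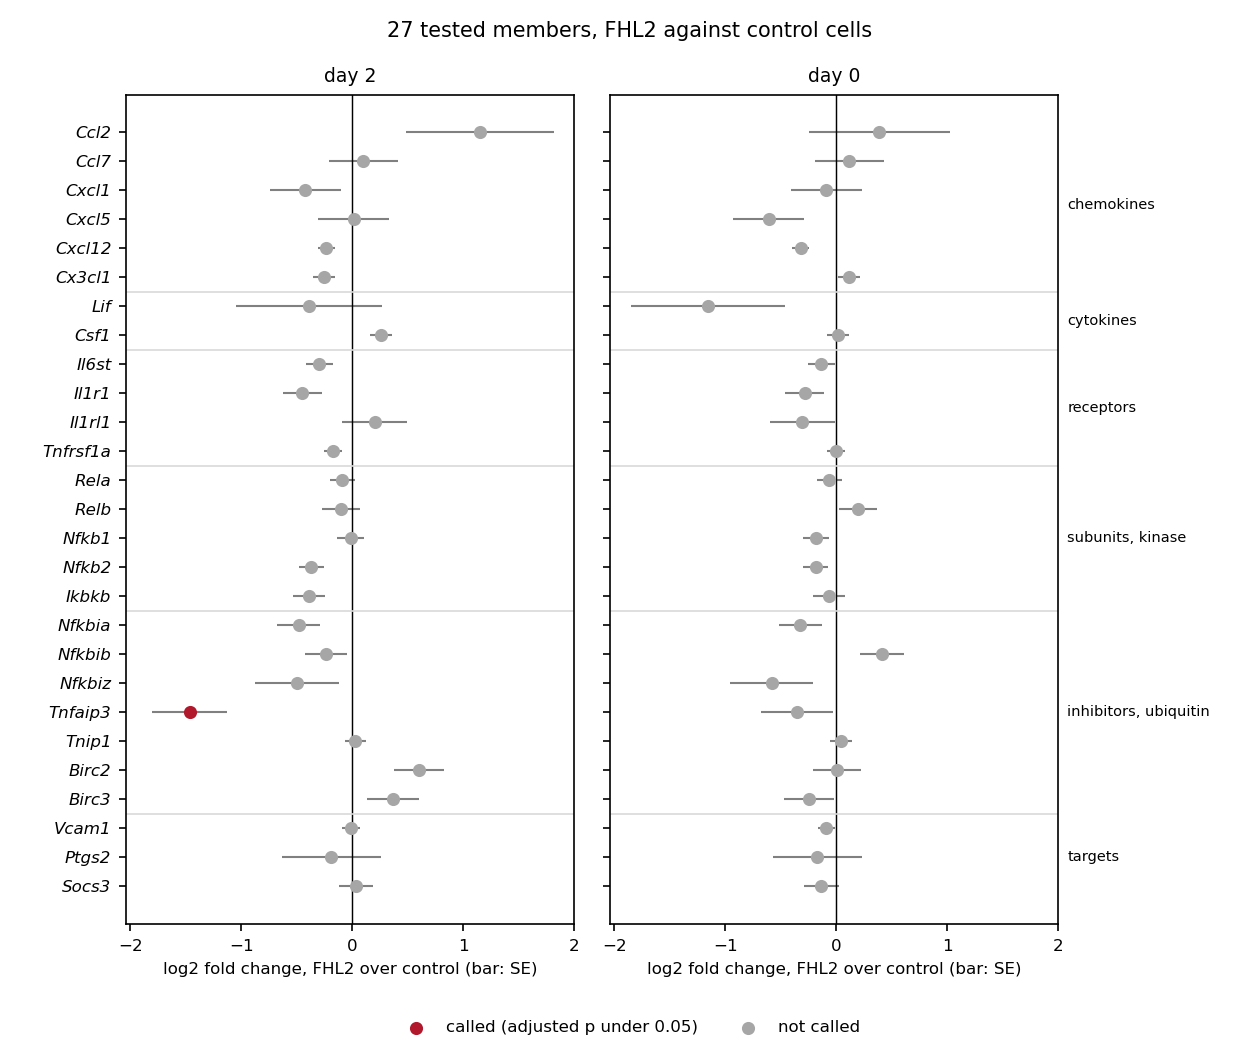
Log2 fold change of each tested member in FHL2 against control cells at day 2 and at day 0, with standard errors. Tnfaip3 at day 2, at -1.47, is the only called value (red), and all other values are grey.

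Other genes of the same pathways, from 3 lists, moved in both directions between the days. The background for the counts of each list is the same: 25.8% of all tested genes rose and 30.2% fell in FHL2 cells. In control cells 26.3% rose and 30.8% fell. Under the GC offset 14.6% of all tested genes rose and 26.5% fell in FHL2 cells, and 14.1% rose and 27% fell in control cells. Counts of the lists under that offset are not given here. Of 55 further genes of NF-kB, tumour necrosis factor, interleukin-1 and Toll-like receptor signalling, 48 were tested: 17 rose and 21 fell in FHL2 cells, and 17 rose and 19 fell in control cells. The median log2 fold change was -0.36 in FHL2 cells and -0.28 in control cells. Map3k14, the kinase that drives processing of the Nfkb2 product, had 87.1, 96.5 and 60.5 CPM in FHL2 cells at day 2, against 16.9, 18.3 and 17.0 CPM at day 0. The control libraries had 121, 106 and 109 CPM at day 2, against 23.1, 24.7 and 26.9 CPM at day 0. It rose by 2.22 on the log2 scale in FHL2 cells (adjusted p = 7.76e-08) and by 2.17 in control cells (adjusted p = 7.97e-08), and with the GC offset by 1.27 (adjusted p = 1.05e-05) and 1.16 (adjusted p = 2.34e-05) in the same lines. Bcl3, a nuclear IkB protein, rose by 2.19 in FHL2 cells (adjusted p = 2.35e-07) and by 2.01 in control cells (adjusted p = 4.78e-07), also with the GC offset. Tlr3, a sensor of double-stranded RNA, fell by 3.03 in FHL2 cells (adjusted p = 1.53e-06) and by 2.93 in control cells (adjusted p = 2.08e-06), also with the GC offset. Chuk, of the same list, fell by 2.65 in FHL2 cells (adjusted p = 5.26e-05). It had 2.70, 10.9 and 3.69 CPM there at day 2, against 35.9, 37.4 and 35.3 CPM at day 0. Control cells had 9.85, 7.35 and 13.0 CPM of Chuk at day 2, against 42.3, 34.9 and 33.5 CPM at day 0. Values of Chuk with the GC offset are not given here.

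Of 35 further genes of gp130 and JAK-STAT signalling, 31 were tested, of which 11 rose and 10 fell in FHL2 cells, and 12 rose and 10 fell in control cells. Stat3, the transcription factor activated through gp130, rose by 1.32 in FHL2 cells (adjusted p = 5.22e-08) and by 1.57 in control cells (adjusted p = 1.07e-08). Its rise was called in both lines with the GC offset too. Socs6 fell by 2.12 in FHL2 cells (adjusted p = 2.33e-05) and by 2.67 in control cells (adjusted p = 3.59e-06), and with the GC offset only the fall in control cells was called.

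Of 60 further chemokines, cytokines and chemokine receptors, 23 were tested, of which 5 rose and 3 fell in FHL2 cells, and 7 rose and 4 fell in control cells. Il1rn, the antagonist of the interleukin-1 receptor, had 54.7, 73.1 and 73.7 CPM in FHL2 cells at day 2, against 0.845, 0.781 and 0.997 CPM at day 0. Control cells had 60.8, 50.8 and 32.3 CPM at day 2, against 0.995, 0.648 and 0.981 CPM at day 0. The rise was 6.25 on the log2 scale in FHL2 cells (SE 0.30; adjusted p = 1.45e-09) and 5.77 in control cells (SE 0.29; adjusted p = 2.56e-09), and the GC offset raised it. Cxcl10, a chemokine induced by interferon, fell by 1.85 in FHL2 cells (adjusted p = 0.0117) and by 4.34 in control cells (adjusted p = 5.43e-05), also with the GC offset.

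Between the lines, Tnfrsf1b and Mif were among the listed genes called, both at day 2. Tnfrsf1b, the other receptor for tumour necrosis factor, averaged 33.2 ± 2.38 CPM in FHL2 cells and 65.6 ± 11.1 CPM in control cells (SD, n = 3 each; log2 fold change -0.98, SE 0.17, adjusted p = 0.00932). Mif, a cytokine gene with near-identical copies in the genome and so of uncertain count, had 187, 227 and 221 CPM in FHL2 cells and 397, 488 and 497 CPM in control cells (-1.12, SE 0.11, adjusted p = 0.000198). The groups did not overlap for either gene, and both calls held with the GC offset.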

How the data were processed

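The authors deposited a table of raw counts, with Ensembl genes in rows and the 12 libraries in columns. TruSeq stranded polyA libraries were made, per the labels' protocols, and the submitters' processing notes name HISAT2 2.2.1, HTSeq 0.11.0, Trimmomatic 0.39, FastQC 0.11.9, limma, R 4.1.0 and build GRCm39. The sources used here do not give their roles, order, annotation or strand setting. The members and lists were chosen with earlier results of these data known.

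Tests on the counts used edgeR 4.0.16 (R 4.3.3): filterByExpr by group (minimum count 10), TMM scaling, 1 mean per group, all 12 libraries, quasi-likelihood F tests, 2-sided, Benjamini-Hochberg adjustment over 14435 genes, calls at adjusted p under 0.05. The 5 comparisons were FHL2 against control at each day, day 2 against day 0 in each line, and their difference. Levels are counts-per-million (CPM) values. The floor is 3 counts over a group and covers counting error only. Libraries of a group differed beyond sampling noise (chi-square per degree of freedom of 5.54 or more), so none was merged. The steps were also run on simulated counts that had 1 spread per gene in all groups. The larger spread of the day 2 libraries was therefore not covered by that run.

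The GC offset adds, per library, a smooth curve (mgcv 1.9.3) of the deviation from each gene's mean over the GC content of its longest GENCODE M21 transcript, known for 99.8% of tested genes. Alternatives were other scalings, filters, DESeq2 1.42.0, limma-voom (limma 3.58.1), fewer libraries and the replicate number as a block. Members were all named; each library's values were given for members called between the lines, or called between days in both lines at a log2 change of at least 1 with at least 5 CPM, and for a few more, chosen after their values were seen. Listed genes were named if called between the lines or among the 3 largest changes per direction, and not all are reported here. The kappaB consensus was searched in RefSeq promoters of the previous build, GRCm38.p6; 10 members had no window.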

Additional observations from a re-analysis of the deposited data

How the results depend on the processing

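The counts of members called between the days moved by less than 1.5 times under every alternative run: 13 to 21 in FHL2 cells and 16 to 19 in control cells when 1 library was left out, 20 and 19 when the 3 day 2 libraries of fewest detected genes were left out (the third control library and the first and second FHL2 libraries), and 14 in each line with the GC offset, against 18 and 17. That the counts are close does not mean the same genes, since the GC offsets turned the direction of several members, and the cause was not tested. With the GC offset the log2 fold changes in FHL2 cells were 0.92 for Ccl7, -0.17 for Cxcl12, -0.035 for Nfkbia, -0.33 for Nfkbib, 0.18 for Nfkb1, -0.11 for Rela, -0.37 for Relb and 0.67 for Vcam1. In control cells they were 1.04 for Ccl7, -0.29 for Cxcl12, 0.61 for Il1r1, 0.034 for Nfkb1, -0.15 for Rela, -0.13 for Relb and 0.74 for Vcam1. Values called under neither scaling turned for Il1r1 (0.40), Ccl2 (0.033) and Birc3 (0.16) in FHL2 cells and for Il1rl1 (0.58) in control cells. With the GC offset and the replicate block the log2 fold changes were, in FHL2 cells, 0.87 for Ccl7, -0.17 for Cxcl12, -0.058 for Nfkbia, -0.34 for Nfkbib, 0.18 for Nfkb1, -0.11 for Rela, -0.36 for Relb and 0.68 for Vcam1. In control cells they were 0.99 for Ccl7, -0.29 for Cxcl12, 0.60 for Il1r1, 0.030 for Nfkb1, -0.16 for Rela, -0.14 for Relb and 0.74 for Vcam1. With the offset for GC content and transcript length they were, in FHL2 cells, 0.58 for Il1r1, -0.22 for Nfkbia, -0.41 for Nfkbib, 0.22 for Nfkb1, -0.095 for Rela, -0.31 for Relb and 0.68 for Vcam1. In control cells they were 0.76 for Il1r1, -0.048 for Nfkbia, 0.079 for Nfkb1, -0.11 for Rela, -0.061 for Relb and 0.76 for Vcam1.

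Between the lines the calls were few and depended on the fit. At day 0 the members called were 0 by the reported fit, 1 by DESeq2 and 1 in a fit of the day 0 libraries alone, in both cases Cxcl12. At day 2 the 1 call became 2 with no filter on low counts (Tnfaip3 and Ccl2), 3 with DESeq2, 0 with limma-voom, 0 with the day 2 libraries alone, and 4 without those 3 libraries (Tnfaip3, Il6st, Il1r1 and Nfkb2, all lower in FHL2 cells, where 1 FHL2 library is left and is assumed to vary like the other groups). It was 0 to 2 when 1 library was left out, with 2 (Tnfaip3 and Nfkbia) without the third FHL2 library of day 2. With the offset for GC content and transcript length the 1 call was Csf1, higher in FHL2 cells, and Tnfaip3 had adjusted p = 0.0701. Over all tested genes, 7 were called at day 0, and 69 with no filter, 93 by DESeq2, 18 by limma-voom, 246 with the day 0 libraries alone, 21 with the offset for GC content and length, 135 without the 3 libraries, and 1 to 10 when 1 library was left out. At day 2, 299 were called, and 846 with no filter, 997 by DESeq2, 39 with the day 2 libraries alone, 1606 without the 3 libraries, and 146 to 404 when 1 library was left out. For the difference between the lines in the change between days, 1 gene was called, and 2 with upper-quartile scaling, 2 with the GC offset, 2 with the offset for GC content and length, 91 with no filter, 73 by DESeq2, 243 without the 3 libraries, and 0 to 6 when 1 library was left out. No member was called for that difference under any alternative run. A fit of only the libraries compared was not run for it, since it uses all of them.

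Whether the replicate numbers of the titles pair the libraries was not settled. Deviations from the group means correlated at -0.137 to 0.270 for same-numbered libraries and at -0.371 to 0.240 for different-numbered ones. The highest values, 0.270 and 0.258, were of the third and the first libraries of the lines at day 0. The second libraries of that day had the lowest same-numbered value, -0.137. With the replicate block, 0 members were called between the lines at day 2 (Tnfaip3 had adjusted p = 0.0796), also with the GC offset, and 11 genes were called at day 0 with the block, and 11 with the block and the GC offset. Between the days the block gave 19 members in FHL2 cells and 18 in control cells.

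Depth limits the members of few counts. Cxcl16, Il6, Icam1 and Tnfrsf11b could not be tested, and Lif, Ptgs2 and Tnfaip3 rest on a few CPM at day 2, where libraries varied most. A single estimate of spread per gene is shared by days that differ in it. Without annotation of GRCm39, GC content came from the previous build.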
